A study of Homo sapiens with 97 samples.

Results

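The loci described here are LMNB2, MYC, HBB, MCM4 and TOP1, 5 human genes beside or within which replication origins were mapped in classical studies. They were chosen for that history, by a rule that uses no value of this series, though with earlier results of these data known. Each is taken as its hg19 gene span with 250 kb on either side. The 5 windows cover 2.65 Mb of 3012 Mb of listed nuclear sequence and hold 46 of the 26599 regions in 6 deposited lists. The series itself, 97 samples in 50 groups, followed DNA replication near double-strand breaks in human cell lines.

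The replication timing lists come from untreated wild-type U2OS osteosarcoma cells, from 1 merged G1 and 1 merged S phase sample. They divide the chromosomes into 4 classes, early, mid-early, mid-late and late, in the order in which the sequence is copied during S phase. The list of nascent strand sequencing (NS-seq) peaks belongs to AsiSI-U2OS cells, a U2OS line in which adding 4-hydroxytamoxifen (4OHT, 300 nM for 4 h) lets the restriction enzyme AsiSI cut the genome. NS-seq sequences short, RNA-primed new strands and so marks places where synthesis began. Its list stands under an untreated input library and is named as merged, so its peaks cannot be split between 4OHT and control cells. The break sites are AsiSI sites overlapping MRE11, a nuclease that binds DNA ends. They were measured in 4OHT-treated HCT116 colorectal carcinoma cells that lack the DNA ligase LIG4 and are labelled AID_RAD21, RAD21 being a cohesin subunit. Each list is a single merged result of unknown read depth, so no value below has a replicate error and no test was made. Lists of regions hold no marker levels by which the cell lines could be checked.

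An origin is licensed in G1, when the origin recognition complex with CDC6 and CDT1 loads the MCM helicase onto DNA, and only some licensed origins fire in a given S phase. Open, transcribed chromatin tends to replicate early, and genes silent in a cell type often replicate late. LMNB2 encodes lamin B2 of the nuclear lamina, and its origin was mapped at the 3′ end of the gene, towards TIMM13. HBB encodes the beta chain of adult haemoglobin, and its origin was mapped between HBD and HBB. The MYC origin lies upstream of that transcription factor gene. The MCM4 origin lies between MCM4, which encodes a subunit of the MCM helicase itself, and PRKDC, which encodes a repair kinase. The TOP1 origin lies at the promoter of the gene, whose product relaxes supercoiled DNA.

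Among the 5 loci, LMNB2 was the one with both an NS-seq peak and break sites inside the gene. The span, chr19:2427636-2456960 (29.3 kb), lay wholly in early sequence. A peak at 2433791 to 2434790 stood 6.15 kb inside the lower end of the span, the end that faces the mapped origin. Its score, the authors' value per peak, was 12.2, rank 1606 of 3733 nuclear peaks, whose median was 11.8. Of all windows as long as the LMNB2 span, stepped every 10 kb along chromosomes 1 to 22 and X, 3.0% held a peak. That share was not taken within the early class or chromosome 19, where peaks lie closer together. The median distance to a peak was 115 kb on chromosome 19, 431 kb over early positions and 1244 kb over the genome. The other 4 spans held 0 peaks.

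All 3 break sites of the LMNB2 window lay within 1 kb of the upper end of the span, which is the 5′ end of this minus-strand gene. They were 2455992 to 2455999, 2456093 to 2456100 and 2456595 to 2456602, at 961, 860 and 358 bp from that end. The nearest NS-seq peak was the one inside the gene, 21.2 to 21.8 kb away. Of the 129 break sites in the list, these 3 were the only ones with another site within 2 kb. The list gives AsiSI sites that overlap MRE11, so whether each of the 3 was cut separately cannot be told. A break site fell in 1 of the 5 windows. Windows of the loci's median length, 518 kb, held one in 2.18% of cases. Windows of the LMNB2 length held 3 or more in 0.018%. That is about the share of windows placed over these 3 sites themselves, so it is not an independent rate. Sites and timing were measured in different cell lines.

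AsiSI recognises the 8 bases GCGATCGC, which read the same on both strands. The promoters of LMNB2 and TOP1 are shown because promoter entries were found for only these 2 of the 5 genes in the RefSeq table. The break sites lie beside that of LMNB2, and the mapped origin of TOP1 lies at its promoter. The table is on GRCh38.p14, so its positions are not comparable with the hg19 positions above. Each sequence is the 250 bases before the gene start, 5′ to 3′ on the gene's strand, with CG dinucleotides in capitals. LMNB2 is GRCh38 chr19:2456960-2457209 on the minus strand and TOP1 is GRCh38 chr20:41028572-41028821 on the plus strand.
LMNB2: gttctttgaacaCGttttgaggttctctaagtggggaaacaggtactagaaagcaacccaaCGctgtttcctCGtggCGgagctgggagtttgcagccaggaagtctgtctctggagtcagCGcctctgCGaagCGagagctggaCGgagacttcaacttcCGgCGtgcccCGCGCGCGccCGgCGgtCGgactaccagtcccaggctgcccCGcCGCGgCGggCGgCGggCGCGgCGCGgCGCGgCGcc
TOP1: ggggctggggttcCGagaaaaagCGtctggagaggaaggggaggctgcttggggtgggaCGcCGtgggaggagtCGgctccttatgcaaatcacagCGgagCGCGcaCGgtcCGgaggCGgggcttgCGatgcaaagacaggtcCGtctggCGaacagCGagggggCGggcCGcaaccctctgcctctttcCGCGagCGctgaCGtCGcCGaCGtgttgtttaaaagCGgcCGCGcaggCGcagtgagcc
The LMNB2 stretch held 30 CG dinucleotides and was 66.4% G or C, and the TOP1 stretch held 28 and was 66.8%. The medians over 35116 promoters were 11 and 58.0%. At least as many CG dinucleotides as in LMNB2 were found in 12.4% of promoters, and as many as in TOP1 in 15.9%. The AsiSI motif was in neither window of 300 bases, which adds the first 50 bases of the transcript, and 0.208% of all promoter windows held it. The listed break sites lay 358 to 961 bp inside the LMNB2 span, farther in than those 50 bases. The absence of the motif from the window therefore says nothing about them.

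Peaks were dense around LMNB2. Its window of 529 kb held 8 peaks, or 15.1 per Mb against 1.24 per Mb over all nuclear sequence. Of these, 6 lay to the left, at gaps of 69.4, 74.1, 94.0, 157, 226 and 233 kb from the span, and 1 lay to the right at 244 kb. The right-hand peak, 2701448 to 2702447, had the highest score of the window, 17.1 (rank 262), followed by 16.4 (rank 365) for the peak at 2332608 to 2333607. The remaining peaks of the window scored from 10.4 to 13.0. The peak at 157 kb lay in a mid-early interval, and the others, the one inside the gene included, lay in early sequence. At least 8 peaks were found in 1.34% of all windows of this length and in 2.15% of those centred in early sequence. On chromosome 19 these shares were 12.6% and 18.2%. Most windows of chromosome 19 (69.2%) held a peak, as did 87.1% of those centred in early sequence. The locus therefore stood out less within its own chromosome than in the genome.

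The LMNB2 gene sat in an early domain of 882 kb, from 2296001 to 3178000, where neighbouring intervals of the same class are joined to a domain. Early domains had a median of 151 kb, or 605 kb weighted by length, the domain size at a typical early position. This domain held 11 peaks and ranked 187 of 2598 early domains by length. Its nearest border was 132 kb to the left, at a mid-early interval of 30.1 kb (2265901 to 2296000), beyond which early sequence resumed. Within 500 kb of the span 97.1% of the sequence was early, and within 1000 kb 79.8% was. If intervals under 50 kb are given to their longer neighbour, the mid-early interval is absorbed and the domain grows to 1429 kb.

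**Figure D1:**
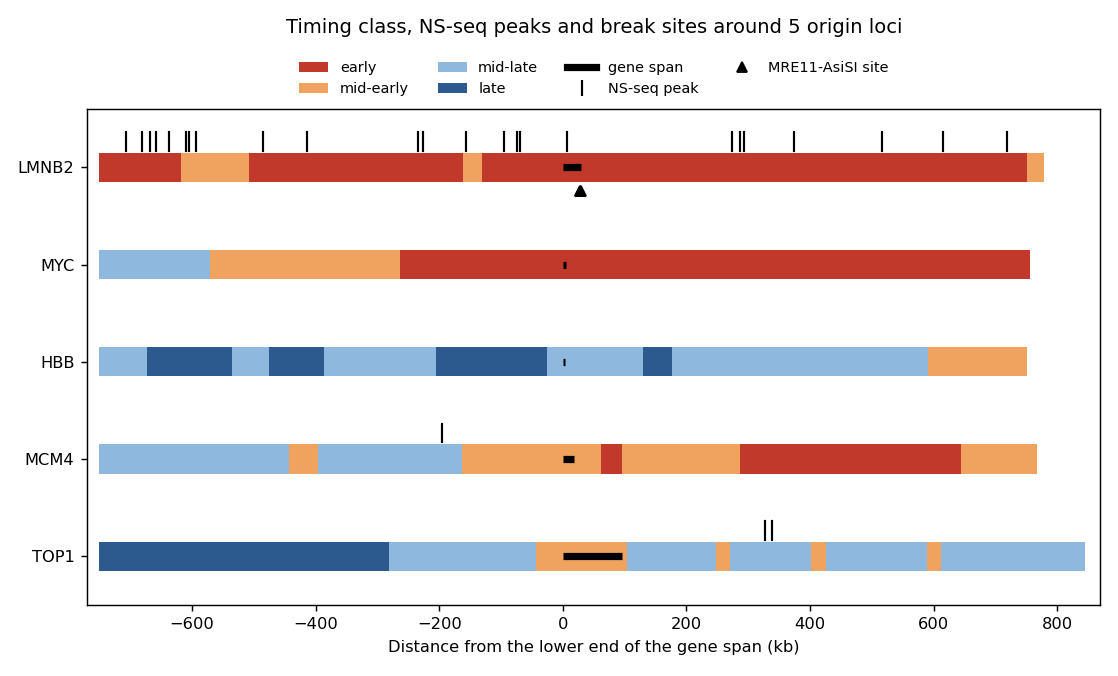
Timing class (colour), NS-seq peaks (vertical ticks) and MRE11-AsiSI sites (triangles, 3 overlapping at LMNB2) about 750 kb to either side of each gene span (black bar), drawn by distance in kb from the lower end of the span. Peaks crowd the LMNB2 row, the MYC and HBB rows have none, and MCM4 and TOP1 have 1 and 2.

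MYC lay in a long early domain without a listed peak. The span, chr8:128748315-128753680 (5.37 kb), was early, and so was 100% of its window of 505 kb, in 6 listed intervals without a border. In the genome, 7.34% of windows of that length were wholly early. The domain ran from 128485401 to 129705000, 1.22 Mb, and ranked 103 of 2598 early domains by length. Weighted by length, the early median was 605 kb. PVT1, a long non-coding RNA gene, is next on the right by RefSeq order, and of the 20 nearest listed genes 5 are microRNA genes and 1, POU5F1B, is protein-coding. The gene stood 263 kb from its left border and 951 kb from its right border, and mid-early domains of 308 kb and 550 kb followed on the left and the right. The nearest border was farther than the median of 115 kb over early positions, and 72.9% of early positions lay as near to a border or nearer. The order of MYC and LMNB2 by domain size depended on how intervals were joined. As listed, the MYC domain was the longer, but LMNB2 had 1429 kb against 1220 kb once intervals under 50 kb were given to their longer neighbour, and the single interval holding each gene was 213 kb at LMNB2 and 121 kb at MYC.

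No NS-seq peak was listed in the MYC domain or within 2000 kb of the gene. The nearest lay 2003 kb to the left, at 126744687 to 126745686 (score 12, in early sequence), and the nearest on the right lay 5372 kb away, at 134125790 to 134126789 (score 10.3, early). Over early positions the median distance to a peak was 431 kb, and 21.4% were at least as far from one as MYC. On chromosome 8 that share was 37.5% of early positions. The stretch without a peak was 7.38 Mb long, rank 94 of 3636 gaps between neighbouring peaks, whose median was 90.8 kb. It held 2.92 Mb of early sequence, rank 35 of these gaps by that measure. These ranks count each gap once, whereas a given position falls more often in a long gap than in a short one. The gaps around all 4 loci without a peak in the span were among the longest 7.1%. Early domains without a listed peak were common, though. Of the 103 early domains at least as long as that of MYC, 39 held none. The nearest break site to MYC was 125633403 to 125633410, 3115 kb away. No peak in the list scored below 10.0, so sequence without a listed peak is not shown to lack an origin.

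**Figure D2:**
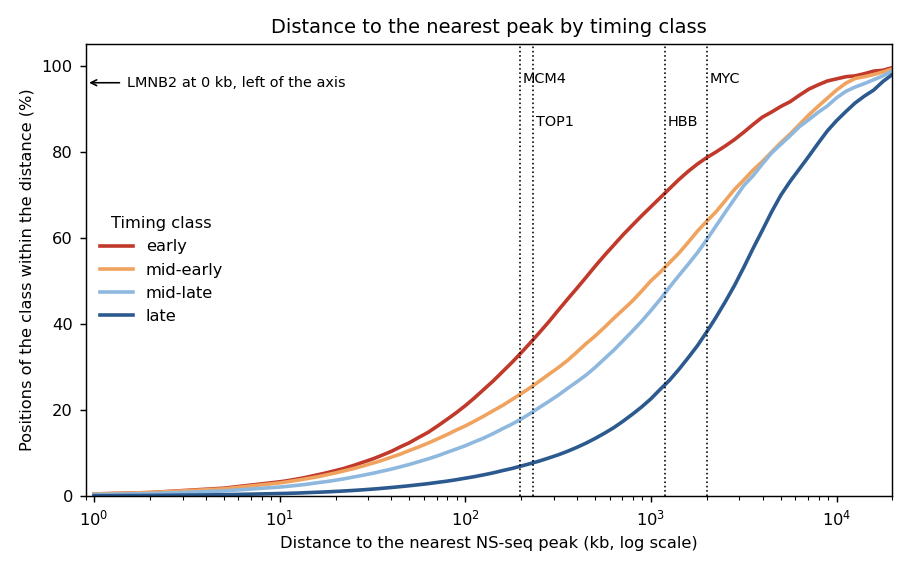
Share of genome positions (%, stepped every 10 kb) within a given distance (kb, log scale) of the nearest NS-seq peak, by timing class, with dotted lines at the distances of the loci. MYC at 2003 kb lies beyond most early positions, HBB at 1186 kb near the middle of the mid-late curve, and MCM4 (196 kb) and TOP1 (231 kb) low on the mid-early curve. LMNB2, which contains a peak (0 kb), is off the log axis.

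HBB was the latest of the 5 loci. The span, chr11:5246696-5248301 (1.61 kb), lay in mid-late sequence, and its window of 502 kb was 55.0% mid-late and 45.0% late, with no early or mid-early sequence. The order of classes from left to right was mid-late, late, mid-late with the gene, late and mid-late. The domain with the gene ran from 5220301 to 5375700 (155 kb). The median over mid-late domains was 121 kb, but the median weighted by length, the domain size at a typical mid-late position, was 284 kb. It was flanked by a late domain of 179 kb on the left (5041401 to 5220300) and a late interval of 47.0 kb on the right (5375701 to 5422700). The gene lay 26.4 kb from the left border, against a median of 58.0 kb over mid-late positions. With listed intervals under 50 kb given to their longer neighbour, its domain became 652 kb and its distance to a border 60.3 kb. That rule acts before intervals are joined. It therefore also relabelled a 33.9 kb piece (5186401 to 5220300) of the late domain on the left. The 4 borders in the window exceeded the median of 2 for windows of that length, and 27.2% of windows held as many.

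The genes listed around HBB belong mostly to 2 families, the globin genes, which are used in red blood cell precursors, and the olfactory receptor genes, which are used in sensory neurons of the nose. By RefSeq order, which is used here without positions, 14 of the 20 nearest listed genes were olfactory receptor genes or pseudogenes. Another 5 were globin genes or the globin pseudogene HBBP1, such as HBD and HBG1. HBD, a minor adult globin gene on the side of the mapped origin, was the next gene on the right, and the olfactory receptor gene OR51V1 the next on the left. The nearest NS-seq peak was 1186 kb to the right of HBB, at 6433877 to 6434876 in mid-early sequence (score 10.3, rank 3306), and the nearest on the left was 1868 kb away. This was near the middle of its class, as 52.9% of mid-late positions were at least as far from a peak. The gap without peaks was 3.06 Mb. The nearest break site lay 62.5 Mb away.

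MCM4 lay in mid-early sequence between later sequence on one side and earlier sequence on the other. The span, chr8:48872745-48890720 (18.0 kb), sat in a domain from 48709201 to 48934400 (225 kb), rank 598 of 4977 mid-early domains. This was near the mid-early median weighted by length, 218 kb. That median includes mid-early intervals over 1 Mb, which raise it, and was not taken without them. By count, 88.0% of mid-early domains were no longer than that of MCM4. To the left, where the mapped origin and PRKDC lie, a mid-late domain of 233 kb began 164 kb from the gene. To the right, an early interval of 34.6 kb (48934401 to 48969000) began 43.7 kb from the gene, followed by mid-early sequence again. With intervals under 50 kb given to their longer neighbour, this border was lost, the domain became 429 kb and the nearest border was the one at 164 kb. The rule also relabelled a 21.7 kb piece of mid-early sequence (49138001 to 49159700), where that domain then ended. The window of 518 kb was 6.68% early, 76.6% mid-early and 16.7% mid-late. Within 500 kb the early share was 26.1%, and within 1000 kb it was 19.4%.

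A single peak stood in the MCM4 window, 196 kb left of the gene at 48676057 to 48677056. It lay in the mid-late domain, outside the domain that holds the gene, with a score of 10.9 (rank 2612 of 3733). It scored below the median of the list, and with peaks under the median left out the nearest peak was 8528 kb away. On the right, no peak was listed for 8561 kb. The gap between the peaks on either side was 8.77 Mb long, rank 73 of 3636 with each gap counted once. Of that gap 43.6% was late and 9.64% early. Windows as long as that of MCM4 held at least 1 peak in 23.5% of cases over the genome and in 17.2% on chromosome 8. The distance of 196 kb was short beside the mid-early median of 1002 kb, and 76.4% of mid-early positions were at least as far from a peak. The mid-early list holds 20 intervals over 1 Mb, up to 21 Mb long and 15.2% of its positions, and without them the median was 711 kb and the share 72.3%. The nearest break site lay 17.7 Mb away.

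TOP1 lay in a mid-early domain between mid-late domains. The span, chr20:39657462-39753127 (95.7 kb), was wholly mid-early, while its window of 596 kb was 28.4% mid-early and 71.6% mid-late. The domain with the gene ran from 39614801 to 39760700 (146 kb). The median over mid-early domains was 81.8 kb, and weighted by length it was 218 kb. Mid-late domains of 239 kb on the left and 145 kb on the right enclosed it, and a mid-early interval of 23.1 kb followed on the right. Late sequence began outside the window, and within 1000 kb of the gene the late share reached 45.4%, the highest of the 5 loci. The promoter end, which faces the mapped origin, was 42.7 kb from the left border. The other end was 7.57 kb from the right border. A long span comes nearer to borders than a single position does, and measured from its midpoint TOP1 was 55.4 kb from a border, beyond the mid-early median of 44.0 kb. By midpoints HBB, at 27.2 kb, was the nearest of the 5 loci to a border.

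The TOP1 window held 2 peaks, both right of the gene and both in mid-late sequence. They were 39984111 to 39985110 (score 10.8, 231 kb from the span) and 39995457 to 39996456 (score 11.9, 242 kb). Genes listed on that side by RefSeq order include PLCG1, which encodes a phospholipase C, and ZHX3, which encodes a zinc finger and homeobox protein. To the left the nearest peak was 1918 kb away, in late sequence at 37738573 to 37739572 (score 14.2). The TOP1 domain itself held 0 peaks. Measured from the midpoint of the span the nearest peak was 279 kb away, and from its promoter end 327 kb, so both peaks fell in the window only because the flank was taken from the far end. On chromosome 20, 45.4% of windows of this length held a peak and 26.3% held at least 2, against 25.4% and 13.6% over the genome. The nearest break site, 37360268 to 37360275, lay 2297 kb away in early sequence.

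**Figure D3:**
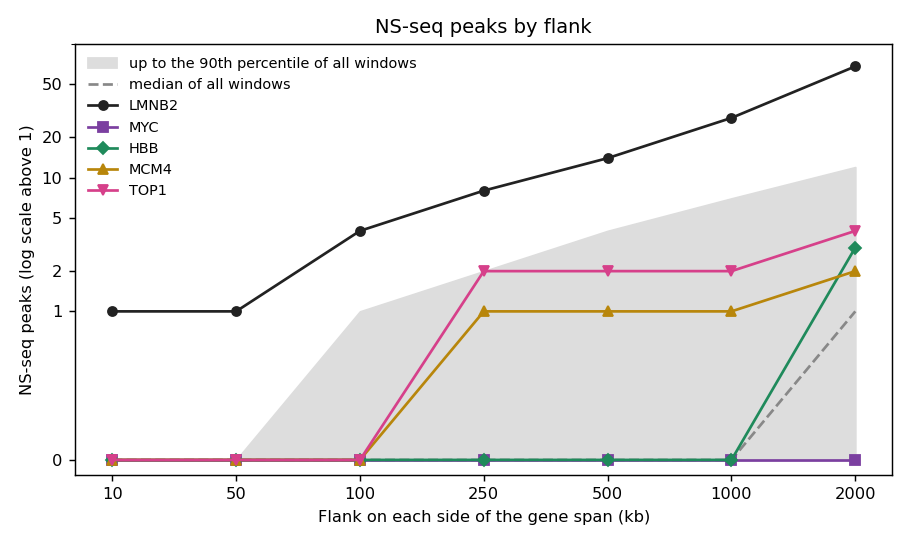
NS-seq peaks (log scale above 1) within growing flanks (kb) on each side of the gene spans, with the median and the 90th percentile of all windows of an 18.0 kb span plus the same flanks. LMNB2 rises from 1 peak within 10 kb to 68 within 2000 kb, above the 90th percentile throughout, and MYC stays at 0.

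Set side by side, 3 of the 5 windows held a peak, LMNB2 with 8, TOP1 with 2 and MCM4 with 1, while MYC and HBB held 0. Over all windows of the median length of 518 kb the share with a peak was 23.5%. The 11 peaks came to 4.15 per Mb over the 5 windows, 8 of them at LMNB2. With flanks of 100 kb, LMNB2 was the only locus with a peak. With flanks of 250 kb taken from the midpoints, or from the ends nearest the mapped origins, 2 loci had a peak, LMNB2 and MCM4. Within 2000 kb LMNB2 had 68 peaks, TOP1 4, HBB 3, MCM4 2 and MYC 0.

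**Figure D4:**
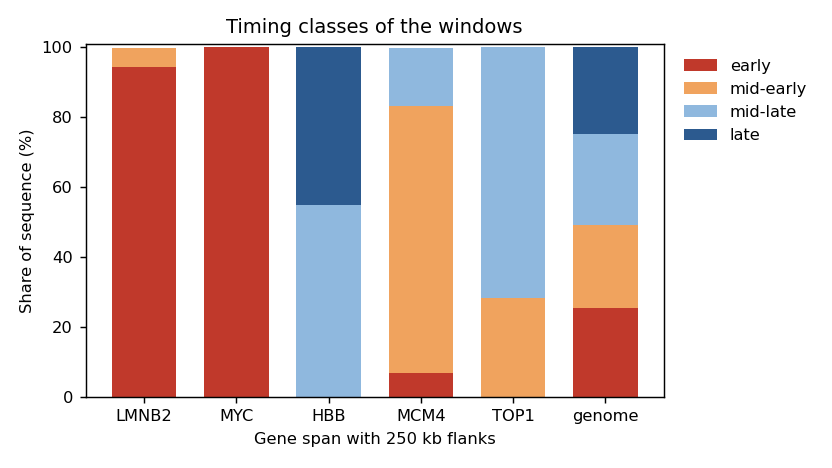
Share of sequence (%) in each timing class in the window of each locus (gene span with 250 kb flanks) and in all listed nuclear sequence. LMNB2 and MYC are 94.3% and 100% early, HBB is divided between mid-late and late, and TOP1 is mostly mid-late although its gene is mid-early.

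By timing, 4 of the 5 genes lay in early or mid-early sequence, against 48.3% of genome positions (46.4% without mid-early intervals over 1 Mb). The share of all genes could not be taken, since the gene table is on GRCh38. The loci were therefore not compared with other genes. LMNB2 and MYC were early, MCM4 and TOP1 mid-early, HBB mid-late, and none was late. None of the 5 spans was crossed by a border. The share of the window in early or mid-early sequence gave the order LMNB2 and MYC (100%), MCM4 (83.3%), TOP1 (28.4%) and HBB (0%). The number of peaks did not follow this order, since the MYC window was as early as that of LMNB2 and held no peak.

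**Figure D5:**
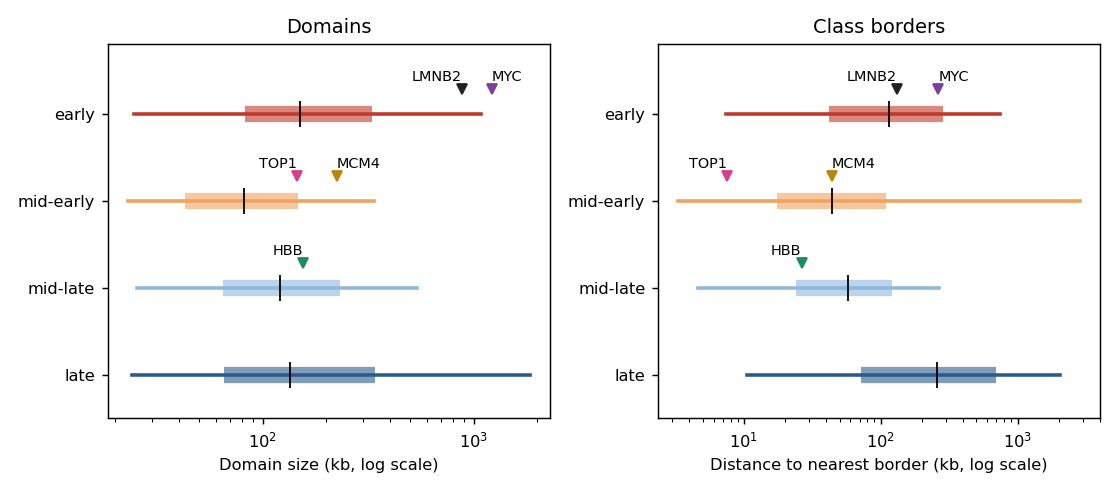
Size of the timing domain (left, kb, log scale) and distance to the nearest class border (right, kb, log scale) for the 5 loci (triangles), above the distribution of their class (thin line, 5th to 95th percentile; thick bar, quartiles; tick, median). The left panel shows all domains and the right panel positions stepped every 10 kb. The LMNB2 and MYC domains lie well above the early median of 151 kb. They are also above the early median weighted by length, 605 kb, which is not drawn. Distances to borders run from the nearest end of the span, which places TOP1 lowest, while by midpoints HBB is nearest.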

How the data were processed

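The values are 6 deposited lists of regions on hg19. Per the submitters' processing notes, MACS2 was used, with no version or role given. The sources used here name no aligner, filter or read depth and do not say how timing was divided into classes. The authors deposited each peak with a score of no stated scale, which served only to rank peaks and to set a stricter threshold. Per the labels, samples were grouped by title. Peaks and sites were counted by midpoint, gaps run between nearest ends, and a locus took the class covering most of its span. Background shares count overlapping windows of the same length, or positions, stepped every 10 kb on chromosomes 1 to 22 and X. Domain ranks, domain medians and the listed nuclear sequence include chromosome Y as well. Python 3.11.15, numpy 2.4.6 and matplotlib 3.10.9 were used, and interval functions were tested on simulated data. All 5 loci were named, with their nearest peaks on each side, all peaks and sites in the windows and the neighbouring domains. The members, lists and alternatives were chosen with earlier results of these data known, and backgrounds without mid-early intervals over 1 Mb were added after seeing the data. Lists of origin licensing, firing and related genes could not be placed, since the gene table used here is on GRCh38, and break-induced changes were not analysed here.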

Additional observations from a re-analysis of the deposited data

How the results depend on the processing

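Over 108 values recomputed under other settings, 75 stayed within 1.5 times of the reported value and 33 moved further. With flanks of 100 kb, 1 locus had a peak in place of 3. The count was 2 with peaks at or above the median score, from midpoints and from the ends nearest the mapped origins. These 2s lie at the limit of 1.5 times and were counted as staying. Counting early sequence alone gave 2 loci in place of 4. With peaks at or above the median score, the median distance from locus to peak was 1429 kb in place of 231 kb. The median domain of 225 kb became 1702 kb with the classes joined to 2, and 652 kb with intervals under 50 kb given to their longer neighbour. The median distance to a border, 43.7 kb, became 571 kb for borders between the earlier and later pair of classes. It became 164 kb after the same reassignment of short intervals, which also relabels short pieces of longer domains. Each of these settings itself shortens the windows or drops peaks, classes or borders. The backgrounds without mid-early intervals over 1 Mb, chosen after seeing the data, moved no share by over 1.5 times. The count of loci with a break site stayed at 1 in each of its 5 alternatives. No paired analysis was possible because each list is a single merged result without replicates.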
